A study of Mus musculus with 4 samples.

Results

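Circadian clock genes were examined in the livers of fasted male mice that were wild-type or labelled Cnot3+/-. The genes were Arntl, Clock, Per1, Per2, Per3, Cry1, Nr1d1, Nr1d2, Dbp and Tef, chosen by name among the probe sets that the array annotation pairs with a single gene symbol. All 10 were among the 13379 genes tested. They were read by 25 probe sets, of which 22 passed a filter that removed the dimmest 40% of the array, leaving 23102 probe sets in the comparison. The 3 left out, all of Per3, are described by their values alone.

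The mice were C57BL/6J, 12 weeks of age, kept on a 12 h light-dark cycle with ordinary chow, and housed singly without food for 24 h. There were 2 wild-type animals and 2 heterozygous for Cnot3, a gene for a regulatory part of the CCR4-NOT machinery that shortens mRNA tails. The labels call the animals biological replicates, do not describe the Cnot3 allele, and give no hour at which the livers were taken. RNA of each animal went onto its own one-colour Affymetrix array, and values are the authors' log2 expression values, on which a step of 1 is a factor of 2. The arrays are numbered as in the labels (wild-type 1 and 2, Cnot3+/- 1 and 2), and where 4 values follow each other they stand in that order.

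The molecular clock is a feedback loop that runs in nearly every cell with a period of about a day, and the liver clock is set by feeding as well as by light. The proteins CLOCK and BMAL1 (the product of Arntl) bind E-box elements and switch on the Per, Cry and Nr1d genes and the transcription factor genes Dbp and Tef. PER and CRY proteins then shut off CLOCK and BMAL1, and the nuclear receptors REV-ERBalpha and REV-ERBbeta, encoded by Nr1d1 and Nr1d2, repress Arntl through elements that ROR receptors activate. DBP and TEF bind D-box elements in turn. Transcripts of Arntl and of E-box-driven genes such as Nr1d1 and Dbp therefore peak at roughly opposite times of day. The level of a clock gene in a single sample thus depends on when the tissue was taken.

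Promoter windows show which of these elements lie next to the genes. The windows run from 250 bases before to 50 bases after a transcription start (RefSeq, build GRCm38.p6), and 9 of the 10 genes matched, with 14 windows. The E-box was searched as CACGTG, the D-box as TTANGTAA and the ROR element as ANTAGGTCA, on both strands, and no matches overlapped. An E-box was present in 4 windows of 3 genes (Per1, Cry1 and Tef), against 7.15% of 32851 windows in all. A D-box was present in the Per3 window, in 2 copies, against 2.32% of all windows. A ROR element was present in 1 Arntl window, against 0.661% of all. Such a match is a description of letters and not a measured binding site. The stretches below are given because they hold these matches, in capitals; Tef has an E-box before each of its 2 starts and the first is shown.
Per1, chr11:69098699-69098948, + strand, bases before the start: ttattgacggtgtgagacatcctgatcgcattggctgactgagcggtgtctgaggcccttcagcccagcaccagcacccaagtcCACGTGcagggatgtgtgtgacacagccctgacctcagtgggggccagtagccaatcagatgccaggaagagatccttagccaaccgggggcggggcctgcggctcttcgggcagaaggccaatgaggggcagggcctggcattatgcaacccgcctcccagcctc
Tef, chr15:81802423-81802672, + strand, bases before the start: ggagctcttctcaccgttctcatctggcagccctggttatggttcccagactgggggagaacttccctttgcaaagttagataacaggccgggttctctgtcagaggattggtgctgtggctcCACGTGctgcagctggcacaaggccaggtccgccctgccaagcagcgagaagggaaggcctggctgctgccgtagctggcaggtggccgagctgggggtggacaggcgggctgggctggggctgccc
Cry1, chr10:85185055-85185304, - strand, bases before the start: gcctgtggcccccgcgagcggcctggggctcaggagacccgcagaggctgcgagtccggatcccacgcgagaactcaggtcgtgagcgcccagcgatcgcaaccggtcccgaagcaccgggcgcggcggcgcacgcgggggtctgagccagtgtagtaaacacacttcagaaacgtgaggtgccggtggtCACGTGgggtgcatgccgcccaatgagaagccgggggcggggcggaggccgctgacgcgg
Per3, chr4:151044666-151044915, - strand, bases before the start: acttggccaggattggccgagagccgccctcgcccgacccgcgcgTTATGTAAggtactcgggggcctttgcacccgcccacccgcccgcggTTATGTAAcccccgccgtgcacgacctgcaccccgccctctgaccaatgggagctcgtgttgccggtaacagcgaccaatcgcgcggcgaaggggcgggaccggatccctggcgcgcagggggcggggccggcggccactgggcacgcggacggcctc
Arntl, chr7:113207529-113207558, + strand, site after the start: gaaggcagaaAGTAGGTCAgggacggaggt
The Per1 E-box begins 166 bases before the start, that of Cry1 60 bases before it and the Tef E-box shown 127 bases before it. The D-boxes of Per3 begin 205 and 158 bases before its start. The Arntl match begins 28 bases after its start.

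None of the 10 clock genes changed between the genotypes in limma. The gap between the wild-type mice exceeded the genotype difference in 9 of 10, against 61.2% of all genes tested. That gap is between single animals, and the genotype difference is between means of 2. No clock gene had an adjusted p below 0.999, and 0 of 10 had an unadjusted p under 0.05, against 3.59% of all genes tested. With wild-type 1 as the only wild-type animal, the differences of Per1, Per3, Nr1d2 and Dbp were 1.16, 0.84, 0.61 and 1.10. With wild-type 2 as the only one they were 0.063, -0.29, -0.090 and -0.49. Over all genes, 2 of 13379 (0.0149%) passed the adjusted threshold of 0.05. Among the 22 clock probe sets 0 passed and 0 had an unadjusted p under 0.05, and of all probe sets tested 0.00866% passed. The groups did not overlap for 2 of 10 clock genes, against 31.5% of all genes. Both, Clock and Per1, were higher in Cnot3+/-, as were 14.1% of all genes. The median difference, Cnot3+/- minus wild-type, was 0.096 for the clock genes and -0.0087 for all genes tested.

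The sampled arrays set limits on these values. Array medians lay between 4.62 and 4.66 (log2), and a 2-fold gap or more separated the wild-type mice in 74 genes and the heterozygotes in 432. The brighter Cnot3 probe set read 7.48, 8.14, 7.70 and 7.86, a difference of -0.031 (SE 0.25) that became 0.30 without wild-type 2. The dimmer Cnot3 probe set differed by 0.11 (SE 0.15). Neither passed the test, the labels do not place the probes relative to the altered part, and each direction rests on the labels. Hepatocyte markers (6 of 6, among them Alb and Ttr) read 13.44 or more on every array, and none ranged over more than 0.21 across the arrays. The mean of the 8 tested macrophage markers stood 1.88 above the wild-type mean on Cnot3+/- 2 and 0.24 below it on Cnot3+/- 1. Of these markers, Marco and Cd5l stood above the wild-type mean on Cnot3+/- 1 as well. The mean of 4 tested T and NK cell markers stood 1.23 above it on Cnot3+/- 2. The mean of 4 tested sinusoidal endothelial markers stood 1.02 below it on Cnot3+/- 1 and 0.23 below it on Cnot3+/- 2. That of 4 tested stellate cell markers stood 0.60 below it and 0.16 above it on the same arrays. The part of these cells in the clock gene values was not tested, and in whole liver RNA fewer cells of a type and less RNA per cell cannot be told apart.

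The activator genes differed little between genotypes. Clock, which encodes a DNA-binding partner of BMAL1, read 7.76 and 7.68 in the wild-type mice and 7.82 and 7.81 in the heterozygotes. Its groups did not overlap, but the step between them was small, at 0.098 (SE 0.13, n = 2 per group; 95% interval of the fold change 0.853 to 1.34). Clock had the narrowest interval of the 10 genes. Its other 3 probe sets differed by -0.20, -0.014 and 0.11, so the sign was not shared between them. Arntl read 7.65 and 6.96 in the wild-type mice, with the heterozygotes at 7.44 and 7.18. Both Cnot3+/- values thus lay between those of the wild-type mice, and the difference was 0.0082 (SE 0.26; fold interval 0.635 to 1.59). A second, dim Arntl probe set read between 4.69 and 4.92 on all 4 arrays and did not show the gap between the wild-type mice.

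**Figure D1:**
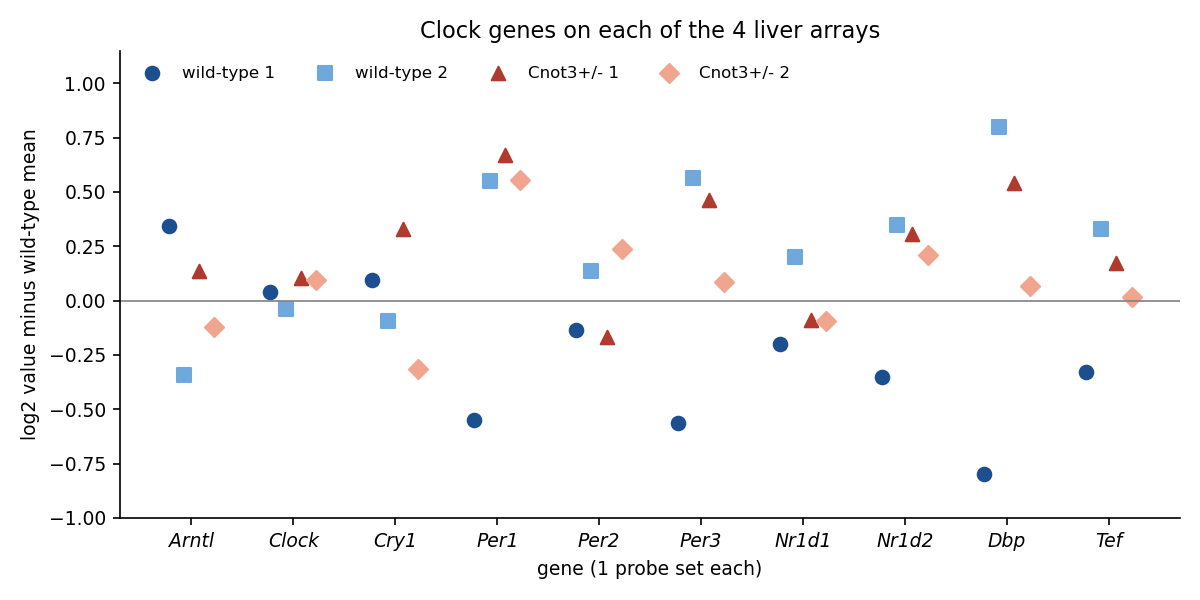
Log2 value of each clock gene on each of the 4 arrays, minus the mean of the wild-type arrays for that gene (vertical axis), with 1 probe set per gene along the horizontal axis and 1 symbol per array. Wild-type 1 is the lowest array for Per1, Per3, Nr1d1, Nr1d2, Dbp and Tef and the highest for Arntl, and the Cnot3+/- arrays overlap the wild-type ones for 8 of 10 genes.

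The Period genes showed the largest genotype value among the clock genes, without a call. Per1, a repressor of CLOCK and BMAL1 that also responds directly to glucocorticoids, read 6.35 and 7.45 in the wild-type mice against 7.57 and 7.46 in the heterozygotes. Only wild-type 1 stood apart from the other 3 animals. The difference was 0.61 (SE 0.37, limma adjusted p = 0.999), or 1.53-fold with an interval from 0.801 to 2.92, and it shrank to 0.063 without wild-type 1 and grew to 1.16 without wild-type 2. Among all genes, 2.64% had a difference at least as large. The 1 Per1 probe set on the array leaves no second reading.

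Per3, the Period gene with the D-box pair printed above, read 5.40 and 6.53 in the wild-type mice against 6.43 and 6.05 in the heterozygotes. Wild-type 1 was lowest here too, but unlike for Per1 wild-type 2 was highest, with the Cnot3+/- arrays between them. The difference was 0.28 (SE 0.39; fold interval 0.608 to 2.41), and -0.29 without wild-type 1. Of its other probe sets, those tested differed by -0.031 and -0.085, and all 3 dim ones read higher in wild-type 2 than in wild-type 1. Per2, a Period gene that also answers body temperature, read 6.80 and 7.07 in the wild-type mice and 6.77 and 7.17 in the heterozygotes. Its groups overlapped, with a difference of 0.035 (SE 0.20; fold interval 0.724 to 1.45). The other 2 Per2 probe sets differed by 0.0080 and 0.20.

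Cry1, which encodes the strongest repressor of the loop, did not follow the Period genes. It read 7.75 and 7.57 in the wild-type mice, and 7.99 and 7.34 in the heterozygotes. The Cnot3+/- arrays lay outside the wild-type values on opposite sides, 1.56-fold apart from each other, and the genotype difference was 0.0075 (SE 0.24; fold interval 0.653 to 1.55).

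The REV-ERB genes gave unequal readings. Nr1d2 read 9.57 and 10.27 in the wild-type mice, and 10.23 and 10.13 in the heterozygotes. Wild-type 1 was again the array that stood low, and the difference of 0.26 (SE 0.25; fold interval 0.765 to 1.87) became -0.090 without it. Its second probe set differed by 0.11. Nr1d1, the other REV-ERB gene, read 5.32 and 5.72 in the wild-type mice and 5.43 in both heterozygotes. It was the only gene of the 10 with a difference below 0, at -0.090 (SE 0.18; fold interval 0.687 to 1.28), and its Cnot3+/- values lay between the wild-type ones.

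The output genes Dbp and Tef encode PAR bZIP factors that carry the rhythm on to metabolic and detoxification genes. Dbp read 6.12 and 7.71 in the wild-type mice against 7.46 and 6.98 in the heterozygotes. The wild-type mice spanned the whole range, and the Cnot3+/- mice lay within it. The difference was 0.30 (SE 0.53, adjusted p = 0.999 in limma), or 1.23-fold with an interval from 0.482 to 3.16, the widest of the 10. Without wild-type 1 it was -0.49, and without wild-type 2 it was 1.10. The second Dbp probe set read 6.98, 8.63, 8.67 and 7.66 in the same order of arrays, which again put wild-type 1 lowest. There Cnot3+/- 1 read highest, and the Cnot3+/- mice differed by 1.02. Tef read 9.03 and 9.69 in the wild-type mice, and 9.53 and 9.38 in the heterozygotes. Its Cnot3+/- values lay between the wild-type ones, and the difference was 0.093 (SE 0.25; fold interval 0.691 to 1.65), or -0.24 without wild-type 1. Its other 2 probe sets differed by 0.21 and -0.16.

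**Figure D2:**
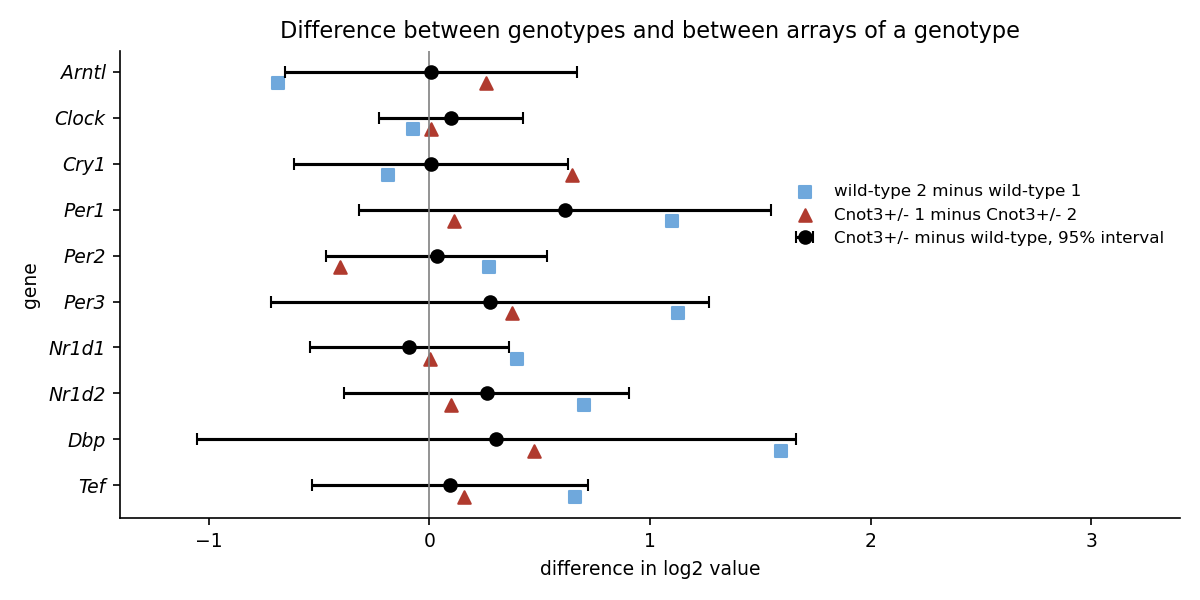
Difference in log2 value for each clock gene: black circles are Cnot3+/- minus wild-type with the 95% interval from limma (n = 2 per group), squares are wild-type 2 minus wild-type 1, and triangles are Cnot3+/- 1 minus Cnot3+/- 2. Every interval spans 0, and for Dbp, Per3 and Per1 the wild-type mice differ by 1.60, 1.12 and 1.10.

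In order of difference the genes ran from Per1 through Dbp, Per3, Nr1d2, Clock, Tef, Per2, Arntl and Cry1 to Nr1d1. All 10 intervals overlapped and included 0, and differences between genes in this order were not tested. The intervals of 7 genes left out a change of 2-fold in either direction, against 92.0% of all genes tested. Those of Per1, Per3 and Dbp did not, so a 2-fold higher level in Cnot3+/- was within the error for these 3, as was a 2-fold lower level for Dbp.

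For most of these genes the wider spread lay among the wild-type mice. The gap between the Cnot3+/- mice was the larger in 2 of 10, Cry1 and Per2, against 50.1% of all genes tested. The gap between wild-type 1 and wild-type 2 exceeded the genotype difference in 9 of 10 clock genes, against 61.2% of all genes tested, and Clock was the exception. The wild-type gap was at least 2-fold in 3 of 10 clock genes, against 0.553% of all genes. Dbp was 3.02-fold higher in wild-type 2, a gap that 11 of 13379 genes reached, itself included. Per3 was 2.18-fold higher there (42 genes reached that gap) and Per1 2.14-fold higher (51 genes). Nr1d2 and Tef were 1.62-fold and 1.58-fold higher in wild-type 2, while the Arntl level in wild-type 2 was 0.622 of that in wild-type 1. These are differences between single animals and have no replicate check. The median gap of the 10 genes was 0.67 on the log2 scale between the wild-type mice and 0.21 between the Cnot3+/- mice. Over all genes tested these medians were 0.18 and 0.18.

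**Figure D3:**
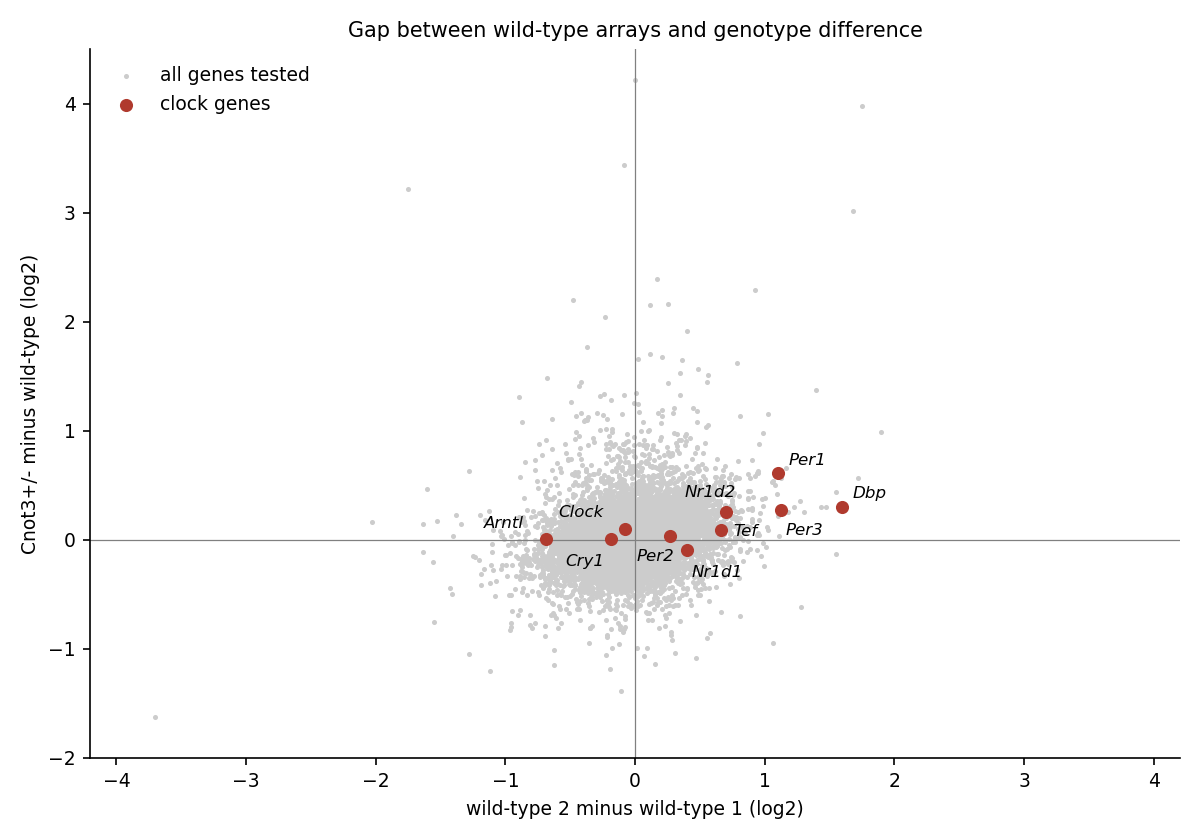
Each gene tested is plotted by its difference between the wild-type mice (wild-type 2 minus wild-type 1, horizontal axis, log2) and its difference between genotypes (Cnot3+/- minus wild-type, vertical axis, log2). The clock genes (large points) spread from -0.68 for Arntl to 1.60 for Dbp along the horizontal axis and from -0.090 to 0.61 along the vertical one.

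The direction of the gap was mostly shared by the probe sets of a gene, and its size was shared for some genes only. Dbp differed by 1.60 and 1.64 between the wild-type mice on its 2 probe sets, and Nr1d2 by 0.70 and 0.47. Per3 differed by 1.12 between the wild-type mice on its main probe set and by 0.36 and 0.15 on the other 2 tested, and Arntl by -0.68 and 0.044. For 7 clock genes driven through E-boxes (Per1, Per2, Per3, Nr1d1, Nr1d2, Dbp and Tef), 15 of 15 tested probe sets read higher in wild-type 2 than in wild-type 1, against 51.2% of all probe sets tested. This grouping does not rest on the promoter windows above, which held an E-box for Per1, Tef and Cry1 only. Cry1 is driven through E-boxes too, but also through ROR elements, and was listed with Arntl and Clock. Its probe set read lower in wild-type 2, so that with Cry1 the count was 15 of 16. Wild-type 1 was the lowest of the 4 arrays on 12 of the 15, against 29.1% of all probe sets. For Arntl, Clock and Cry1, 1 of 7 probe sets read higher in wild-type 2. Probe sets of a gene read the same RNA sample and are not replicates. The means of the 6 marker lists for cells other than hepatocytes differed between the wild-type mice by -0.089 to 0.27, the largest being that of macrophages, and their part in the gap was not tested. The hepatocyte list differed by 0.022.

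**Figure D4:**
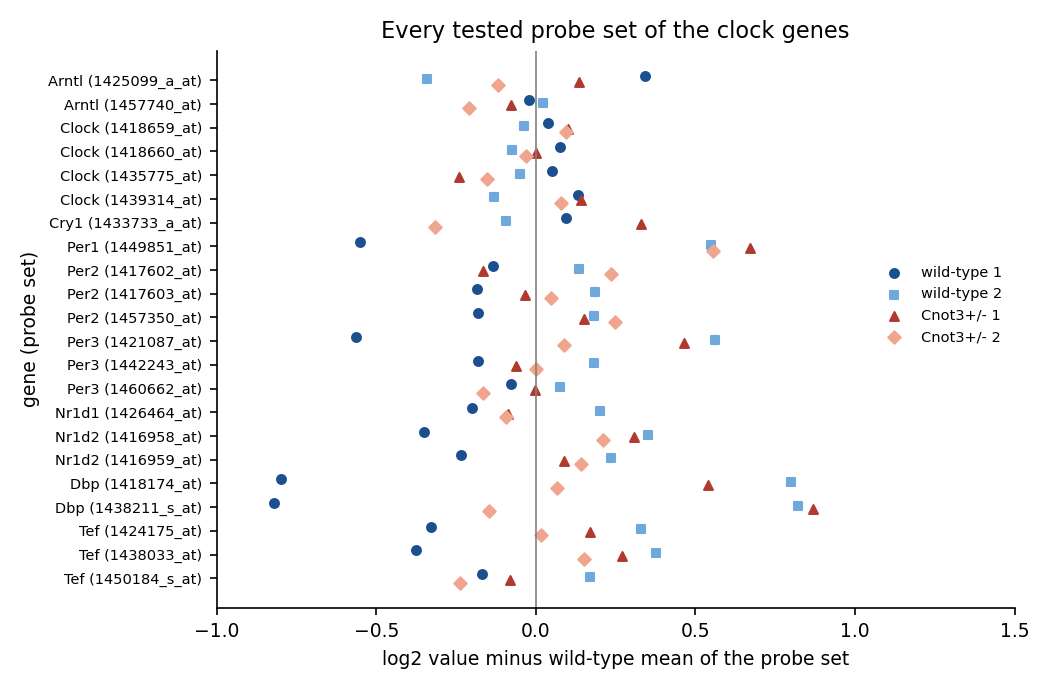
Log2 value minus the wild-type mean for each of the 22 tested probe sets of the clock genes (rows), with 1 symbol per array. Wild-type 1 lies left of wild-type 2 on all 15 probe sets from Per1 to Tef, and right of it on 6 of the 7 probe sets of Arntl, Clock and Cry1.

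The loop was also grouped by its drivers, in lists made up largely of the 10 clock genes already described, so that their means restate those values. A list of 10 genes driven through E-boxes (the 7 above with Hlf, Ciart and Bhlhe41) stood 0.35 below the wild-type mean in wild-type 1 and 0.35 above it in wild-type 2, with Cnot3+/- 1 at 0.17 and Cnot3+/- 2 at 0.11. Both Cnot3+/- mice thus fell between the wild-type mice. Of the 3 genes that this list adds, Hlf and Ciart read higher in wild-type 2, and Bhlhe41 differed there by -0.050. A list of 6 genes driven through ROR elements, of which Arntl, Clock, Cry1 and Nfil3 were tested, stood at 0.12 and -0.12 in the wild-type mice and at 0.25 and -0.054 in the Cnot3+/- mice. The first list minus the second was -0.47 and 0.47 in the wild-type mice, and -0.083 and 0.16 in the heterozygotes. No gene of either list had an unadjusted p under 0.05 between genotypes in limma, and their median differences were 0.064 and 0.053. Without wild-type 1 the E-box median was -0.26, and leaving out wild-type 2 made it 0.35. The ROR element median ran from -0.013 without Cnot3+/- 1 to 0.23 without Cnot3+/- 2.

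The other genes of the clock gave no call. Of a list of 20, 16 were tested, and 0 changed in either direction: 7 had differences above 0 and 9 below, with a median of -0.014, or 0.18 without wild-type 2. Rora, which encodes the receptor that opposes the REV-ERBs at ROR elements, read 8.90 and 9.10 in the wild-type mice and 9.51 and 9.27 in the heterozygotes. Its groups did not overlap, and the difference of 0.39 (SE 0.16) was the largest of the list. Cry2, the second cryptochrome gene, read 6.65, 7.23, 7.45 and 7.18, a difference of 0.37 (SE 0.24). Wild-type 1 stood low there as well. Timeless differed by 0.34 (SE 0.17), and Nfil3, a repressor at D-boxes, by 0.28 (SE 0.16). Hlf, the third PAR bZIP gene, and Ciart, a repressor of CLOCK and BMAL1, were picked after their values were seen. They read 8.14 and 5.26 in wild-type 1 and 8.70 and 5.81 in wild-type 2, and differed between genotypes by -0.072 (SE 0.22) and -0.0099 (SE 0.22).

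Rhythmic liver genes downstream of the clock likewise had no call. Of 24 such genes 21 were tested, with 13 differences above 0 and 8 below, and the median of 0.17 became -0.083 without Cnot3+/- 1. Lpin1, a phosphatidate phosphatase and coactivator gene of fasting liver, read 10.59, 11.25, 11.81 and 11.16, a difference of 0.57 (SE 0.32). Only wild-type 1 stood clearly low. Elovl3, a fatty acid elongase gene with a strong daily rhythm in male liver, read 11.96 in wild-type 1 and 10.77, 10.75 and 11.15 on the other arrays, a difference of -0.41 (SE 0.41). It was high on the array where Dbp was low. Mreg differed by -0.48 (SE 0.21), and the cell cycle inhibitor gene Cdkn1a by 0.47 (SE 0.58), with values of 8.89, 7.28, 8.12 and 8.99.

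Of the clock genes, Dbp had the widest range over the 4 arrays, and genes with a like pattern were ranked by mean absolute distance to it over those arrays, after centring each gene on its wild-type mean. The nearest of the genes outside the 10 were Kcnk5 at 0.13, Epop at 0.14 and Obp2a at 0.16 (log2), with only 4 arrays behind the ranking. Epop was dim, at 3.17 in wild-type 1 and no higher than 4.72 on any array. Kcnk5, a potassium channel gene, read 7.04 and 8.47 in the wild-type mice and differed between genotypes by 0.30 (SE 0.46). Among the clock genes the nearest to Dbp was Per3 at 0.14, followed by Per1 at 0.28, and Arntl was farthest at 0.72.

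Leaving out single arrays showed which animal each genotype value rested on. Without wild-type 1, 4 clock genes had a difference above 0 and 6 below, and their median was -0.095. Without wild-type 2, 8 were above 0 and the median was 0.30. With all 4 arrays 9 of 10 were above 0, and after quantile normalization 6 of 10. No clock gene passed the threshold in any of these fits, in which the smallest adjusted p from limma was 0.839. The sign of Arntl, Per2, Per3, Cry1, Nr1d1, Nr1d2, Dbp and Tef turned with at least 1 array left out. Per1 and Clock kept a difference above 0 whichever array was left out, although that of Clock was -0.00037 with probe sets averaged.

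**Figure D5:**
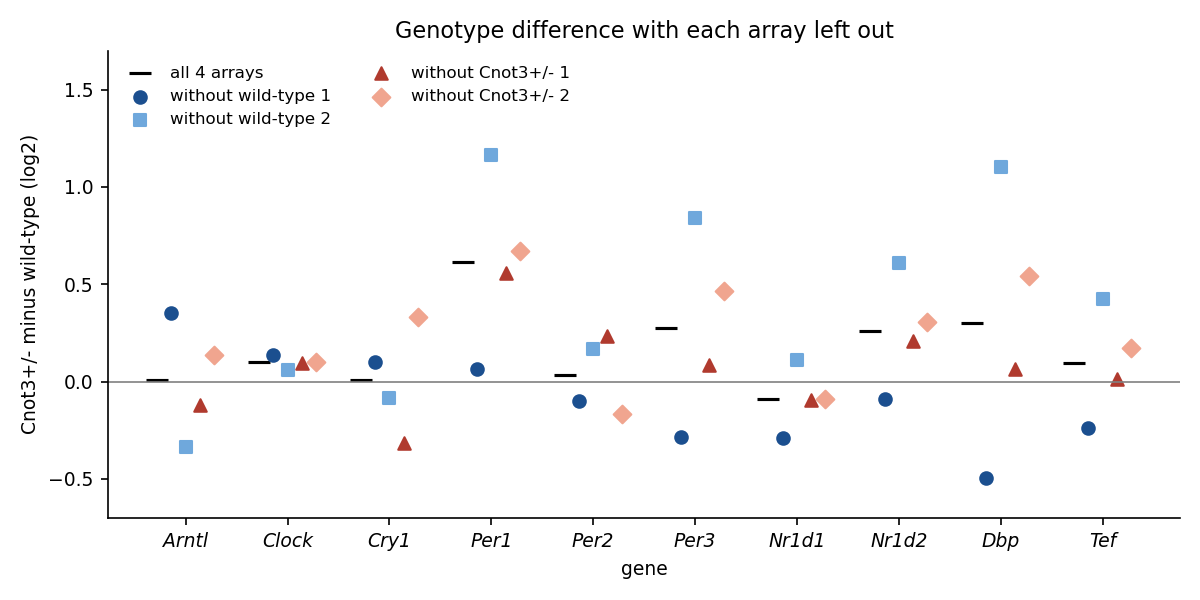
Cnot3+/- minus wild-type (log2) for each clock gene with all 4 arrays (black bars) and with each array left out in turn (symbols). Values without wild-type 1 (dark circles) reach -0.49 for Dbp, and values without wild-type 2 (light squares) reach 1.10 for Dbp and 1.16 for Per1.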

How the data were processed

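Liver RNA of 4 mice was measured, 2 per genotype. The authors deposited log2 values computed with RMA, as the submitters' processing notes record. RMA, which corrects background and normalizes across arrays, pulls in the differences of dim probe sets. The sources used here do not give its version or which arrays were processed jointly. The log2 scale was taken from the values.

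Probe sets were named through the platform's annotation, in which 34958 of 45101 had 1 symbol; 34754 matched the GRCm38.p6 gene table by Entrez identifier and 0 symbols changed. Probe sets below 4.06 in mean log2 value (the lowest 40%) were left out. Each gene was read by its brightest probe set, with _x_at and _s_at ones used only where no other existed. Genotypes were compared in limma 3.58.1 (R 4.3.3, lmFit and eBayes, two-sided, no covariate), with Benjamini-Hochberg adjustment over all genes, or all probe sets, tested. Errors quoted for a gene come from the fit over genes, and those of further probe sets from the fit over probe sets. The fit had 2 residual degrees of freedom and a prior of 3.17, and was tested on simulated data. The number of arrays limits the precision.

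The text names the 10 clock genes, up to 4 genes of largest difference in each other list, the 3 genes nearest in pattern to the widest-ranging clock gene, and Cnot3. Hlf, Ciart, Bhlhe41 and Rgs16 fall outside this rule and were picked after their values were seen. Members and lists were chosen with earlier results of these data known. Of the lists, 6 held markers of neutrophils, T and NK cells, macrophages, endothelium, stellate cells and cholangiocytes. Alternatives were other filters, quantile normalization, no variance moderation, a trended prior, averaged or brightest probe sets, the replicate number as a block, and each array left out.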

Additional observations from a re-analysis of the deposited data

How the results depend on the processing

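No clock gene passed the threshold under any of the 12 alternatives, and the median difference of the 10 genes ran from -0.095 to 0.30 with an array left out and from 0.051 to 0.096 otherwise. Over all genes, 2 were called; with the replicate number as a block 0 were called, among genes and among probe sets alike, and the smallest adjusted p of a clock gene was 0.827. The replicate numbers share only a number: deviations of same-numbered arrays correlated at 0.16 across genes, and there are only 2 pairs. With an array left out, 0 to 38 genes and 0 probe sets were called; 38 came without Cnot3+/- 1, and 0 without wild-type 1 or wild-type 2. Without moderation of variances 2 genes were called, of which 0 were shared with the main setting. Signs turned for Arntl (-0.035), Per2 (-0.0085) and Cry1 (-0.045) after quantile normalization, and for Arntl (-0.068), Clock (-0.00037) and Cnot3 (0.040) with probe sets averaged; the cause was not tested. With an array left out the differences ran from -0.33 to 0.35 for Arntl, -0.17 to 0.24 for Per2, -0.29 to 0.84 for Per3, -0.32 to 0.33 for Cry1, -0.29 to 0.11 for Nr1d1, -0.090 to 0.61 for Nr1d2, -0.49 to 1.10 for Dbp, -0.24 to 0.42 for Tef and -0.36 to 0.30 for Cnot3. No detection call was used, so dim probe sets such as the only 1 of Nr1d1 may read little above background.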

Other observations

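Rhythmic genes that follow body temperature and hormones rather than the liver clock were also read. Of 13 such genes 10 were tested, with 8 differences above 0, 2 below and none called, and a median of 0.18 that lay between 0.10 and 0.22 with an array left out. Hspa1b, an inducible heat shock protein gene, read 9.55 and 8.78 in the wild-type mice and 9.24 and 10.38 in the heterozygotes, a difference of 0.64 (SE 0.45). Cnot3+/- 2 stood highest, and wild-type 1 stood above wild-type 2, the reverse of Dbp. Hspa1a, whose transcript is nearly identical, was read by a dim probe set, at 4.18 to 5.61. It differed by 0.64 (SE 0.37). Hsph1 differed by 0.33 (SE 0.16). Fkbp5, a glucocorticoid-induced co-chaperone gene, read 9.57 and 9.90 in the wild-type mice and 10.21 and 9.88 in the heterozygotes. Its difference was 0.31 (SE 0.19). Rgs16, a regulator of G-protein signalling, belongs to the other list, that of rhythmic genes downstream of the liver clock, and was picked after its values were seen. It read 7.55 and 7.79 in the wild-type mice, and 8.95 and 6.96 in the heterozygotes. The Cnot3+/- mice lay on opposite sides of the wild-type pair, and the difference was 0.28 (SE 0.64).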
